A study of Mus musculus with 36 samples.

Results

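A set of 10 transcription factor genes of the lateral plate mesoderm, the T-box genes Tbx2, Tbx3, Tbx4 and Tbx20, the bHLH genes Hand1 and Hand2, the homeobox genes Isl1 and Pitx1, the forkhead gene Foxf1a and the PR-domain gene Prdm6, were followed along the elongating axis of the mouse embryo. All probes carrying one of these 10 symbols were taken, 16 of the 45281 probes and 10 of the 30869 gene symbols on the array. A probe counted as detected on an array when its detection p-value, which sets it against the negative-control beads, was under 0.01. Probes detected on at least 1 array were tested, which left 11 of the 16 probes and 9 of the 10 genes. Tbx20 was the gene without a tested probe. Hand2, Pitx1 and the other Tbx4 probe passed this filter through the posterior streak arrays alone, so their higher values there follow in part from the filter.

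Wild-type outbred MF1 embryos were the source of the RNA. After amplification it was read on 36 arrays of the Illumina MouseWG-6 v2.0 type, run in 3 batches of 12. At the headfold stage (E7.5) the regions were an anterior, neural-fated region (A, 3 arrays), a posterior region that includes the primitive streak (P, 2 arrays) and the proximal posterior region holding the end of the streak (PP, 2 arrays). At E8.5 they were the rostral node (RN, 2 arrays), the node-streak border (NSB, 3 arrays), the caudal lateral epiblast (CLE, 3 arrays), and the anterior and the posterior end of the streak (St1 and St5, 2 arrays each). In the tail bud they were the chordoneural hinge (CNH, 2 arrays each at E9.5, E10.5, E12.5 and E13.5 and 3 at E11.5) and the tissue behind it (P-CNH, 2 arrays each at E9.5, E10.5 and E11.5). Each array held 6 to 74 pooled pieces of 1 region, taken as whole pieces in which other germ layers were present, except in CLE, whose mesoderm and endoderm had been removed. No treatment or genetic change was involved. Nothing in the labels says how many litters entered a pool, so p-values measure the spread between pools.

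Lateral plate mesoderm arises from the posterior primitive streak under BMP signalling and is continuous with the extra-embryonic mesoderm. It gives rise to the heart, the limb bud mesenchyme, the body wall, the smooth muscle of the gut and much of the early vasculature. Hand1, Hand2, Isl1 and Tbx20 are best known from heart progenitors, Tbx4 and Pitx1 from the hindlimb and allantois, Tbx2 and Tbx3 as T-box repressors in heart, limb and other sites, Foxf1a from splanchnic mesoderm, and Prdm6 from smooth muscle and vascular precursors.

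Upstream sequences are shown for the 3 tested members with a window in the table, all called higher in St5, Hand2 at a level close to background. They are the 250 bases before an annotated start from RefSeq (GRCm38.p6), read 5′ to 3′ on the gene's strand, and capitals mark CANNTG, the E-box read by bHLH factors such as Hand1 and Hand2. The Tbx4 window is chr11:85896515-85896764 on the plus strand and its start lies inside the annotated gene, the Hand2 window is chr8:57320733-57320982 on the plus strand, and the Isl1 window is chr13:116309689-116309938 on the minus strand.
Tbx4: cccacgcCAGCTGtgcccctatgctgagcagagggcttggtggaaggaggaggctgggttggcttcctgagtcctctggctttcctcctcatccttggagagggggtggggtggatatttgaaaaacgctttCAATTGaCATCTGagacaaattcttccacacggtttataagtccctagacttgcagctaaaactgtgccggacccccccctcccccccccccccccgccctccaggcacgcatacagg
Hand2: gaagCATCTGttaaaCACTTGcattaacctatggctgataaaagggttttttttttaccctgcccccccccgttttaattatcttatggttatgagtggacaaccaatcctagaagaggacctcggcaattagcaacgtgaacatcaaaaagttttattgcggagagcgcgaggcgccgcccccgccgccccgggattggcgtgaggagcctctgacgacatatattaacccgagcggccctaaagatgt
Isl1: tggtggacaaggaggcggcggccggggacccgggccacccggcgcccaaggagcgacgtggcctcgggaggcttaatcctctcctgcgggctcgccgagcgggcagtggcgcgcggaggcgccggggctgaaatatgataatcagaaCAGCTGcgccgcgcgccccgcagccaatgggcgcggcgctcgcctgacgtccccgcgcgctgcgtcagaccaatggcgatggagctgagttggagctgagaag
Of the 10 members, 4 had a window in the table, these 3 and Tbx20, and 6 had none. CANNTG occurred 3 times in the Tbx4 window, 2 times in that of Hand2, 1 time in that of Isl1 and 0 times in that of Tbx20, and 66.2% of all 32851 windows held it. The homeodomain core TAAT, searched on both strands, occurred 5 times in the Hand2 window, 2 times in that of Isl1, 1 time in that of Tbx20 and 0 times in that of Tbx4, against 54.9% of all windows with a match. The T-box motif TCACACC was in none of the 4 and in 3.33% of all windows, and the GATA motif AGATAA was in the Hand2 window and in 9.99% of all. GC content was 71.2% for Isl1, 58.4% for Tbx4 and 49.2% for Hand2, with a median of 52.4% over all windows. These matches describe the letters of the windows and not binding. Tbx2 and Tbx4 are direct neighbours on the chromosome in the same annotation, with 0 protein-coding genes between them.

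Levels are given as log2 normalised intensity, on a scale where undetected probes lay near 4.4 to 5.5 on most arrays. Arrays had 10814 to 16256 detected probes, and the 12 arrays of batch 1, which held St5, RN, St1, NSB replicates 1 and 2 and both E10.5 regions, had 15481 or more. The 5 arrays with the fewest were E13.5 CNH replicate 2, E8.5 CLE replicates 1 and 2, E11.5 P-CNH replicate 1 and E7.5 P replicate 1, and results that depended on them are given with and without them. Batches 2 and 3 held the other regions. Differences between regions are from 1 limma model with region and batch terms, and adjusted p-values are those of its moderated test with Benjamini-Hochberg adjustment. A call needed both a fold change of 1.5 or more and an adjusted p no higher than 0.05. Values of different probes are not compared as levels. In pooled pieces, fewer cells of a type and less RNA per cell cannot be told apart.

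**Figure D1:**
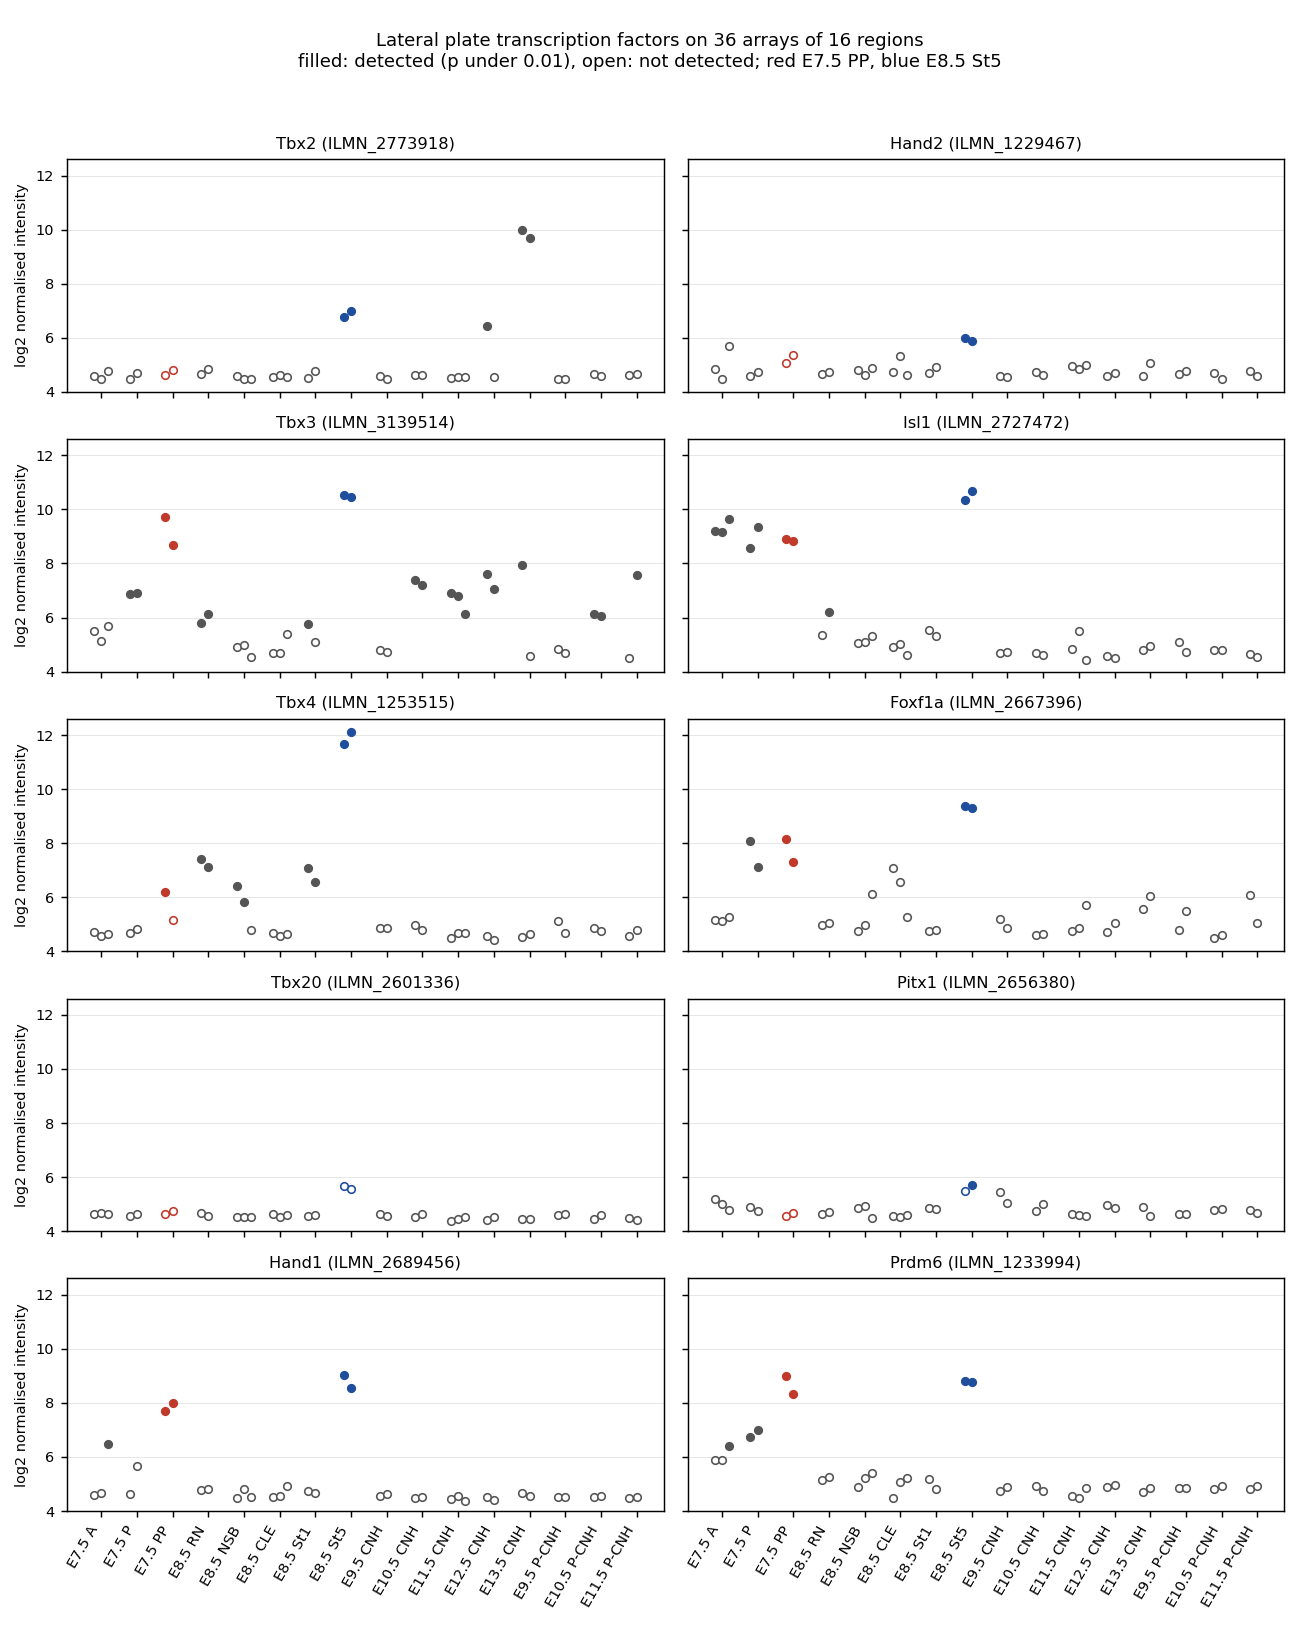
Log2 normalised intensity of each of the 10 members on every array, 1 probe each, by region, with filled points for arrays on which the probe was detected and open points where it was not. The St5 arrays are the highest of the series for most members, both PP arrays detect Tbx3, Hand1, Isl1, Foxf1a and Prdm6, and the tail bud regions show detected Tbx2 and Tbx3 only.

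At E8.5, every tested member was higher in St5, the posterior end of the streak, than in RN, NSB, CLE and St1 averaged. The count was 9 of 9 tested members, where 2.73% of all tested probes were called higher. With no filter, so that all 10 members entered, 9 of 10 were called higher, against 1.26% of all probes. On all 11 tested probes both St5 arrays lay above each of the other 10 E8.5 arrays, which held for 7.23% of tested probes. Hand2, Pitx1 and the Tbx4 probe ILMN_1244228 passed the filter through St5 arrays alone. Their part in the counts of tested members and probes therefore follows in part from the filter. The paper had already reported Tbx3 and Tbx4 as higher in St5 from the same arrays.

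Tbx4, a T-box factor of the allantois and hindlimb, read 11.68 and 12.13 in St5 (probe ILMN_1253515). The other E8.5 regions were lower. The same probe read 7.42 and 7.11 in RN, 7.07 and 6.57 in St1, and 6.41, 5.84 and 4.80 in NSB, of which the last was undetected. The 3 CLE arrays were undetected, at 4.68, 4.58 and 4.65. St5 was higher by 5.36 ± 0.24 (SE, adjusted p = 1.07e-12). Tbx4 was thus also detected in the 3 regions of the node and anterior streak, on all 6 of their arrays in batch 1. The undetected NSB replicate 3 and the CLE arrays were from the other batches. CLE pieces also had their mesoderm and endoderm removed. The lower CLE value, its batches and this dissection therefore cannot be told apart. The other Tbx4 probe (ILMN_1244228) was detected in St5 alone, at 7.91 and 8.28, at least 4.36-fold above the other regions.

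Tbx3, a T-box repressor that also marks extra-embryonic mesoderm, read 10.53 and 10.45 in St5 (probe ILMN_3139514). RN read 5.80 and 6.14, and St1 5.76 and 5.10, the last undetected. NSB at 4.92, 5.00 and 4.54 and CLE at 4.68, 4.69 and 5.40 were undetected on all arrays. The difference was 5.11 ± 0.64 (SE, adjusted p = 8.62e-06). The other Tbx3 probe (ILMN_3061990), with 6.10 and 6.59 in St5, went the same way by 1.66 (adjusted p = 7.23e-05). Tbx2, the closest relative of Tbx3, was low but detected in St5 at 6.77 and 6.98 and undetected on the other E8.5 arrays, at 4.46 to 4.86. Its difference was 2.24 ± 0.28 (SE, adjusted p = 6.56e-06), or at least 1.88-fold.

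Among the bHLH genes, Hand1 read 9.02 and 8.55 in St5 and was undetected on all 10 other E8.5 arrays, at 4.49 to 4.92. The difference was at least 7.05-fold (4.02 ± 0.34 SE, adjusted p = 3.17e-08). Hand2 was barely above background, at 6.00 and 5.88 in St5 and 4.62 to 5.33 elsewhere at E8.5 (1.17 ± 0.21 SE, adjusted p = 0.000839). Hand2 was thus close to its detection limit in these pieces, and no fold bound above 1 could be set for it.

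Isl1, a LIM-homeodomain factor of second heart field and hindlimb progenitors, read 10.34 and 10.67 in St5. RN read 5.36 and 6.20, the latter detected, and the other E8.5 arrays were undetected at 4.60 to 5.54. The difference was 5.30 ± 0.27 (SE, adjusted p = 1.36e-11). Foxf1a, a forkhead factor needed for splanchnic and allantoic mesoderm, read 9.39 and 9.32 in St5, at least 10.45-fold above the other regions (4.42 ± 0.40 SE, adjusted p = 8.86e-08). Its undetected values ranged from 4.76 to 7.08, and the 3 highest, 7.08 and 6.57 in CLE and 6.13 in NSB, came from arrays with few detected probes. Prdm6 read 8.79 and 8.78 in St5 and was undetected elsewhere at E8.5, at 4.47 to 5.39. Its difference was at least 7.06-fold (3.80 ± 0.19 SE, adjusted p = 1.38e-11).

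Pitx1, the homeodomain factor of the hindlimb, was detected on 1 array of the series, St5 replicate 2 at 5.70, while St5 replicate 1 read 5.48 undetected. It was called higher by 0.75 ± 0.15 (SE, adjusted p = 0.00251), and without St5 replicate 2 the value was 0.64 (adjusted p = 0.12). Tbx20, the heart T-box factor, was detected by 0 of its 4 probes. One of them, ILMN_2601336, came close, at 5.67 and 5.57 in St5 and no more than 4.73 on the other 34 arrays. With no filter it was 1.04 ± 0.06 higher in St5 (SE, adjusted p = 1.53e-09), which was measured below the detection limit.

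Taking each E8.5 region in turn, St5 was called higher in 9 members against RN, NSB and St1, where the backgrounds were 2.46%, 2.12% and 1.93%. Against CLE the count was 7 (background 1.08%), without Hand2 and Pitx1. The 7 members called against all 4 regions, Tbx2, Tbx3, Tbx4, Hand1, Isl1, Foxf1a and Prdm6, compare with 0.709% of tested probes. The Tbx2 difference from CLE lost its call without St5 replicate 2 (2.19, adjusted p = 0.0671) or NSB replicate 2 (2.25, adjusted p = 0.0537), and that of Tbx3 without NSB replicate 1 (5.30, adjusted p = 0.0526). For Tbx4 the differences were 4.63 from RN, 5.78 from NSB and 5.09 from St1, and for Isl1 4.73, 5.43 and 5.08. RN, St1, St5 and NSB replicates 1 and 2 shared batch 1, so that these values do not draw on the other batches. NSB replicate 3 was the only array that tied batch 1 to the others, and the differences from CLE rest on it. CLE also lacked the mesoderm and endoderm that the other pieces kept.

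**Figure D2:**
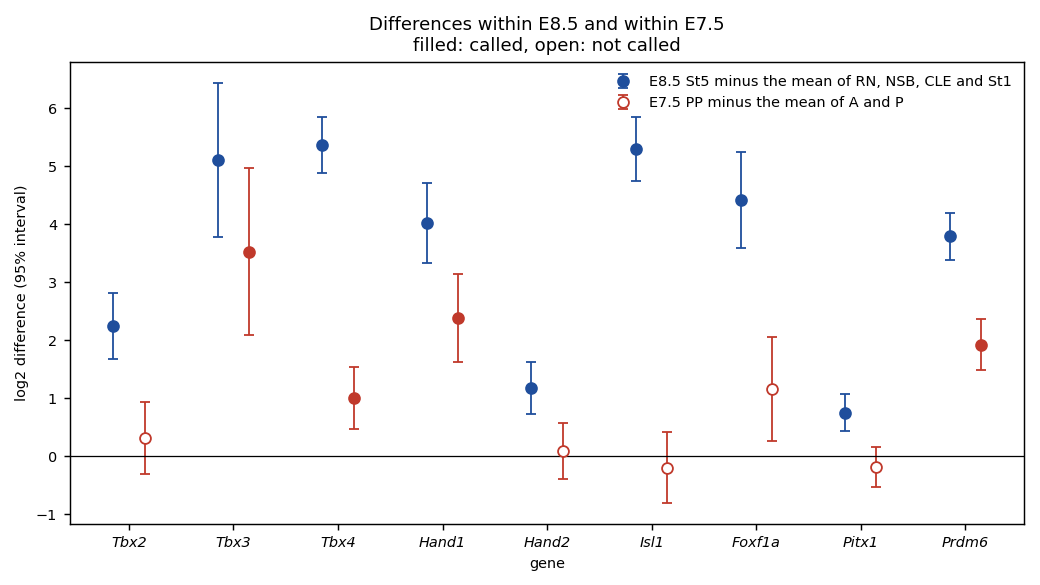
Log2 difference with its 95% confidence interval for each tested member, for St5 against the other E8.5 regions and for PP against the mean of A and P at E7.5. Isl1 lies at 5.30 in the E8.5 comparison and at -0.20 in the E7.5 comparison, and Tbx3, Tbx4, Hand1 and Prdm6 lie above 0 in both.

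At E7.5 the members did not move together. Tbx3, Hand1, Prdm6 and, weakly, Tbx4 were higher in PP than in the mean of A and P, whereas Isl1 was present throughout and Foxf1a divided A from both posterior regions. The count was 4 of 9 tested members, where 1.99% of all tested probes were called higher. Both PP arrays lay above every A and P array in the same 4 members, against 8.41% of tested probes. With BeadChip as a fixed block the count of calls was 1, Prdm6. Set against A alone, PP was higher in 5 members (background 3.14%), these and Foxf1a, and against P alone in 2, Hand1 and Prdm6 (background 0.391%).

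Tbx3 read 9.71 and 8.69 in PP, 6.87 and 6.91 in P, and 5.51, 5.13 and 5.67 in A, undetected. It stepped up from A to P to PP with no overlap of arrays. PP exceeded the mean of A and P by 3.53 ± 0.69 (SE, adjusted p = 0.00334), and P alone by 2.90 (adjusted p = 0.125). Without PP replicate 1 the first of these was 3.02 (adjusted p = 0.118). A was not called below P in the model of all arrays (-1.25, adjusted p = 0.556), but was within batch 2, which held both P arrays and 2 of the A arrays (-1.57, adjusted p = 0.0124).

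Prdm6 showed the same order, at 9.00 and 8.32 in PP, 6.73 and 7.01 in P, and 5.87, 5.87 and 6.42 in A, of which the last was detected. PP was higher by 1.92 ± 0.21 (SE, adjusted p = 3.54e-06) than the mean of A and P and by 1.46 (adjusted p = 0.00384) than P. A was called lower than P (-0.92, adjusted p = 0.0115, where 1.52% of tested probes were called lower), but not within batch 2 alone (-0.99, adjusted p = 0.0519). The difference from P was 1.12 (adjusted p = 0.123) without PP replicate 1, and that between A and P was -0.78 (adjusted p = 0.123) without P replicate 2 and -0.88 (adjusted p = 0.0603) without A replicate 1.

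Hand1 read 7.70 and 8.01 in PP. It was undetected in P, at 4.64 and 5.66, and in A replicates 1 and 2, at 4.60 and 4.65, but detected in A replicate 3 at 6.47. PP was higher by 2.38 ± 0.36 (SE, adjusted p = 0.000241). By plain means of arrays from different batches it was at least 3.48-fold above P (model difference 2.37, adjusted p = 0.00673). The difference from P was 1.86 (adjusted p = 0.096) without P replicate 1 and 1.73 (adjusted p = 0.0785) without the 5 arrays with the fewest detected probes, to which that array belongs. A replicate 3 and both PP arrays lay on the same BeadChip, and the other A arrays and both P arrays on another. With BeadChip as a fixed block, the differences from A and P were 1.12 for Hand1 (adjusted p = 0.0929), 2.75 for Tbx3 (adjusted p = 0.0596) and 0.95 for Tbx4 (adjusted p = 0.237), none of them called. In batch 3, where A replicate 3 was the only array to compare with PP, Hand1 was 1.39 and Prdm6 2.24 higher, and neither was called.

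Tbx4 at E7.5 was detected on 1 array, PP replicate 1 at 6.18, with 5.16 in PP replicate 2 and 4.58 to 4.84 in A and P. The difference was 1.00 ± 0.25 (SE, adjusted p = 0.0264) and was 0.49 (adjusted p = 0.727) without PP replicate 1 and 0.96 (adjusted p = 0.0607) without P replicate 1. Tbx2, Hand2 and Pitx1 were undetected on all 7 E7.5 arrays.

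Isl1 was detected on all 7 E7.5 arrays, at 9.20, 9.17 and 9.66 in A, 8.58 and 9.34 in P, and 8.91 and 8.83 in PP. The A arrays overlapped those of P and lay above those of PP. PP differed from A and P by -0.20, with a 95% interval from -0.80 to 0.41 (adjusted p = 0.82). Foxf1a read 8.09 and 7.14 in P, 8.16 and 7.29 in PP, and was undetected in A at 5.16, 5.11 and 5.29. A was at least 2.94-fold below P (-2.49, adjusted p = 0.00071) and PP at least 3.17-fold above A (2.41, adjusted p = 0.000909), and PP differed from P by -0.09, with an interval from -1.15 to 0.98. For neither Isl1 nor Foxf1a was a difference between PP and P called.

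The change of the posterior difference between the stages was tested as the E8.5 contrast minus the E7.5 contrast. It was called for 6 members, Tbx2, Tbx4, Isl1, Foxf1a, Pitx1 and Prdm6, all larger at E8.5, where 1.37% of tested probes were called higher. Of these, Pitx1 was detected on 1 St5 array alone and passed the filter through it, so its call follows in part from the filter. For Isl1 the change was 5.49 ± 0.39 (SE, adjusted p = 1.01e-08) and for Tbx4 4.37 ± 0.34 (SE, adjusted p = 4.87e-08). It was not called for Tbx3 at 1.58 (95% interval -0.35 to 3.52, adjusted p = 0.559), for Hand1 at 1.64 (adjusted p = 0.0799) or for Hand2 at 1.09 (adjusted p = 0.0662). Without St5 replicate 2 the calls of Tbx2 (1.81, adjusted p = 0.0573) and Pitx1 (0.83, adjusted p = 0.161) were lost, and that of Pitx1 also without PP replicate 1 (0.88, adjusted p = 0.107).

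Set directly against PP, St5 was higher in Tbx4 and Tbx2. Tbx4 differed by 4.91 ± 0.42 (SE, adjusted p = 5.86e-07) and Tbx2 by 2.08 ± 0.50 (SE, adjusted p = 0.0412), at least 2.35-fold by plain means. These were 2 of 9 tested members, against 0.474% of tested probes. The Tbx2 call was lost with no background correction (1.01, adjusted p = 0.17) and when any of the St5 or PP arrays or one of several others was left out, with the highest adjusted p, 0.16, without St5 replicate 2 (1.98). Foxf1a at 2.89 (adjusted p = 0.0508) and Isl1 at 1.90 (adjusted p = 0.0571) narrowly missed the threshold, and Tbx3 at 0.87, Hand1 at 0.79 and Prdm6 at 0.46 were not called. The 95% interval for Tbx3, from -1.52 to 3.26, shows how wide these are. St5 was in batch 1 and PP in batch 3, so that this comparison rests on the batch term and, through it, on NSB replicate 3 alone. The term moved the values. The plain means of Tbx4 were 11.90 in St5 and 5.67 in PP, and those of Foxf1a 9.35 and 7.72.

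Against the mean of the 14 regions other than St5 and PP, 8 tested members were called higher in St5 (background 1.58%) and 6 in PP (background 6.76%). Those of PP were Tbx3, Tbx4, Hand1, Isl1, Foxf1a and Prdm6. These comparisons share the 14 regions. Over all 36 arrays, both St5 arrays lay above every other array for Tbx3, Tbx4, Hand1, Hand2, Isl1, Foxf1a and Pitx1, which held for 1.1% of tested probes. The exceptions were Tbx2, with higher arrays in E13.5 CNH, and Prdm6, with PP replicate 1 at 9.00 above the St5 arrays. For Tbx3 this did not hold on its other probe (ILMN_3061990), where E13.5 CNH replicate 1 at 6.24 lay above St5 replicate 1. Hand2 and Pitx1 passed the detection filter through St5 arrays alone, so their place above every other array follows in part from the filter.

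Most members were undetected in the tail bud. Over the 17 CNH and P-CNH arrays from E9.5 to E13.5, Tbx4, Hand1, Hand2, Isl1, Foxf1a, Pitx1 and Prdm6 were undetected, and limma called 0 of 9 tested members between E9.5 CNH and the E8.5 NSB (background 5.04% in either direction), with 1 at an unadjusted p under 0.05. Tbx3 and Tbx2 were the exceptions.

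**Figure D3:**
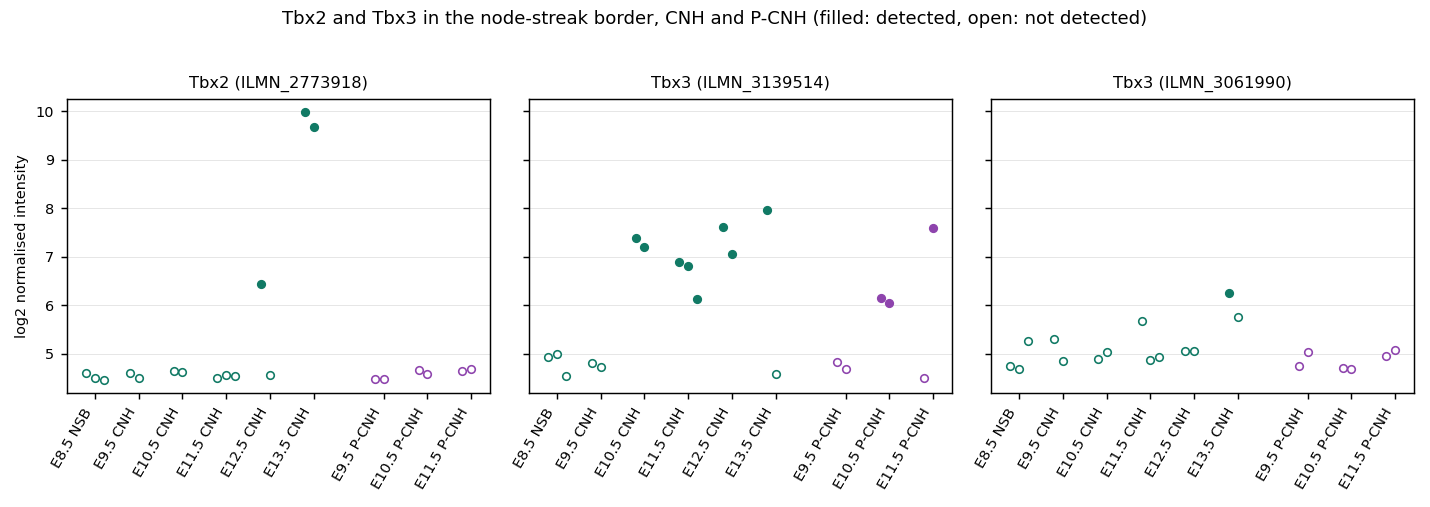
Log2 normalised intensity of Tbx2 and Tbx3 in the NSB and on each CNH and P-CNH array by embryonic day, with filled points for detected values. Tbx3 (ILMN_3139514) was detected from E10.5 on except in E13.5 CNH replicate 2 and E11.5 P-CNH replicate 1, and Tbx2 in E12.5 CNH replicate 1 and both E13.5 arrays, where it read 9.99 and 9.68.

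Tbx3 was undetected in E9.5 CNH, at 4.80 and 4.72, and in the NSB. It then read 7.38 and 7.21 at E10.5, 6.90, 6.81 and 6.12 at E11.5, 7.62 and 7.05 at E12.5, and 7.96 and 4.57 at E13.5. All of these were detected except the last, which came from the array with the fewest detected probes of the series. E12.5 and E13.5 together were higher than E9.5 by 2.33 ± 0.66 (SE, adjusted p = 0.0211), at least 1.51-fold. Tbx3 and Tbx2 were the 2 of 9 tested members called in this comparison, where 7.06% of tested probes were called higher. The other Tbx3 probe (ILMN_3061990) did not show the E10.5 to E12.5 values. It was undetected in the CNH from E9.5 to E12.5, at 4.84 to 5.67, and read 6.24 (detected) and 5.75 (undetected) at E13.5, where it was called higher than at E9.5 (0.97, adjusted p = 0.0188).

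The Tbx3 call depended on which arrays entered. Without E13.5 CNH replicate 1 it was 1.28 (adjusted p = 0.128), without E9.5 CNH replicate 1 or 2 it was 2.37 (adjusted p = 0.13) or 2.29 (adjusted p = 0.147), and without E12.5 CNH replicate 1 it was 2.34 (adjusted p = 0.0666). Without the 5 arrays of fewest detected probes it was 2.95 (adjusted p = 1.2e-06). Within batch 2 alone, which held both E9.5 arrays and 1 or 2 arrays of each later stage but E10.5, it was higher by 2.10 at E11.5 (adjusted p = 0.00356), 2.86 at E12.5 (adjusted p = 0.00259) and 3.20 at E13.5 (adjusted p = 0.000955). E12.5 and E13.5 had 1 array each in that batch, the undetected E13.5 array being in batch 3, so that these lone arrays are assumed to vary like the other regions. In the model of all arrays the same stages gave 2.05 (adjusted p = 0.0862), 2.87 (adjusted p = 0.0279, background 3.05%) and 1.80 (adjusted p = 0.0884). The E12.5 call was lost when any 1 of the E9.5 or E12.5 arrays was left out (adjusted p from 0.111 to 0.203).

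E10.5 was in batch 1 and E9.5 in batch 2, tied by NSB replicate 3 alone, and the difference between them, 2.70, had a standard error of 1.22 (adjusted p = 0.68), with 0 of 9 members called in limma, 3 at an unadjusted p under 0.05, and 0.0507% of tested probes called higher. Against the NSB, a comparison added after the Tbx3 values were seen, E10.5 CNH was higher by 2.33 (adjusted p = 0.0564). The estimate uses only batch 1, which held both E10.5 arrays and NSB replicates 1 and 2, and a fit to that batch alone gave it an adjusted p of 4.15e-06. In the same comparison Tbx4 was lower at E10.5, where it was undetected at 4.96 and 4.81 (-1.24, adjusted p = 0.00348, where 3.6% of tested probes were called lower), but not without NSB replicate 1 (-0.95, adjusted p = 0.126) or E10.5 CNH replicate 2 (-1.16, adjusted p = 0.0538).

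In the CNH, Tbx2 was detected later than Tbx3 as read by probe ILMN_3139514. The other Tbx3 probe was detected there at E13.5 alone, so this order depends on the probe. Tbx2 was undetected from E9.5 to E11.5, at 4.49 to 4.64 in the CNH. It read 6.43 (detected) and 4.56 (undetected) at E12.5, and 9.99 and 9.68 at E13.5. Both E13.5 arrays lay above every other array of the series, St5 included. Among CNH arrays alone, 7.91% of tested probes had both E13.5 arrays on top. E13.5 was at least 12.4-fold above E9.5 (5.42 ± 0.32 SE, adjusted p = 2.64e-10, where 10.6% of tested probes were called higher). Without E13.5 CNH replicate 2 the value was 5.45 (adjusted p = 8.15e-09), with the lone array left assumed to vary like the other regions. The fit to batch 2 compares the same arrays. The E12.5 value, 1.08 (adjusted p = 0.0596), rested on replicate 1, since it was 0.01 without it. Against the NSB the late CNH was higher by 3.08 in Tbx2 (adjusted p = 2.14e-06, background 4.93%) and by 1.96 in Tbx3 (adjusted p = 0.171).

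Behind the CNH, Tbx3 read 4.82 and 4.69 at E9.5, undetected, 6.14 and 6.05 at E10.5, and 4.49 (undetected) and 7.59 at E11.5. The lower E11.5 array was replicate 1, among the 5 with few detected probes. At E10.5 the P-CNH was below the CNH by a difference of -1.20 with no overlap, not called in the model of all arrays (adjusted p = 1) and called within batch 1 (adjusted p = 0.00568). At none of the 3 stages was a member called between P-CNH and CNH, with backgrounds in either direction of 0.17%, 0.318% and 0.161%. At an unadjusted p under 0.05 limma gave 1 member at E9.5, 0 at E10.5 and 1 at E11.5. At E11.5 Pitx1 was called lower in the CNH than at E9.5 (-0.60, adjusted p = 0.0348, background 2.26%) although undetected in both, so that no direction is given to it.

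Other genes of lateral plate, limb and heart mesoderm, a list of 29 with 21 tested, were partly shared with this pattern. In St5, 9 were called higher and 0 lower, with a median difference of 1.23 over the 21, where the median over all tested probes was 0 after rounding. Among them were the heart and gut factor Gata6 (3.60), the limb growth factor Fgf10 (2.16), the epicardial factor Tcf21 (2.03), Twist1 (2.03), Twist2 (3.21), Hlx (2.37), Snai2 (2.11) and Hey1 (1.30). In PP, Fgf10 (1.59), Twist2 (1.47) and Msx1 (2.92) were higher and Tcf21 (-1.30) and Irx3 (-3.55) lower, with a median of 0.21.

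In the late CNH, Fgf10 (3.39), Twist1 (1.40), Hlx (1.44), Snai2 (2.45) and Meis1 (2.15) were higher than at E9.5 and Twist2 (-1.89) and Irx3 (-1.57) lower, with a median of 0.11 against -0.08 for all. Gata4, Gata5, Gata6 and Tcf21 were undetected on the E12.5 and E13.5 arrays. Of 13 other T-box genes, 5 were tested. In St5, limma called 0 of these, with 0 at an unadjusted p under 0.05. In PP the streak and mesoderm genes T (1.91), Tbx6 (2.63) and Eomes (0.74) were higher and Tbx1 lower (-2.36). Eomes was close to background, at a mean of 5.60 in PP with 1 of 2 arrays detected, and undetected in A and P. In the late CNH Tbx1, a T-box gene of pharyngeal and head mesoderm, was the 1 called higher than at E9.5 (1.60, adjusted p = 0.0171), by 2.72 at E13.5 alone (adjusted p = 0.000503).

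BMP ligands and response genes, 8 tested of 11, were higher in St5 in 6 cases, Bmp4 (3.38), Bmp7 (1.29), Id1 (1.33), Id2 (1.81), Id3 (1.23) and Smad6 (2.33), with 0 lower and a median of 1.52. In PP, Bmp4 (2.00) and Msx1 (2.92) were higher, with a median of 0.62. In the late CNH, Bmp7 (2.77), Id1 (0.66) and Id3 (1.04) were higher and the median was 0.36. Bmp4, the ligand that patterns the posterior streak, was called in both posterior regions. It was not called for E12.5 and E13.5 together (0.87, adjusted p = 0.169) but was higher at E13.5 alone (1.94, adjusted p = 0.00417). Msx1 and Bmp4 each stand in more than 1 of these lists.

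The labelled position of both posterior regions was set against 7 posterior streak genes. St5 was higher in 5 of them, Bmp4, Mixl1 (3.36), Mesp1, Evx1 (1.10) and Efna1, and PP in 6, the same 5 and Cdx2 (3.36), with medians of 2.65 and 2.57. From these same arrays the paper had already reported those 5 as enriched in posterior regions. The list is therefore no independent check of the position.

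**Figure D4:**
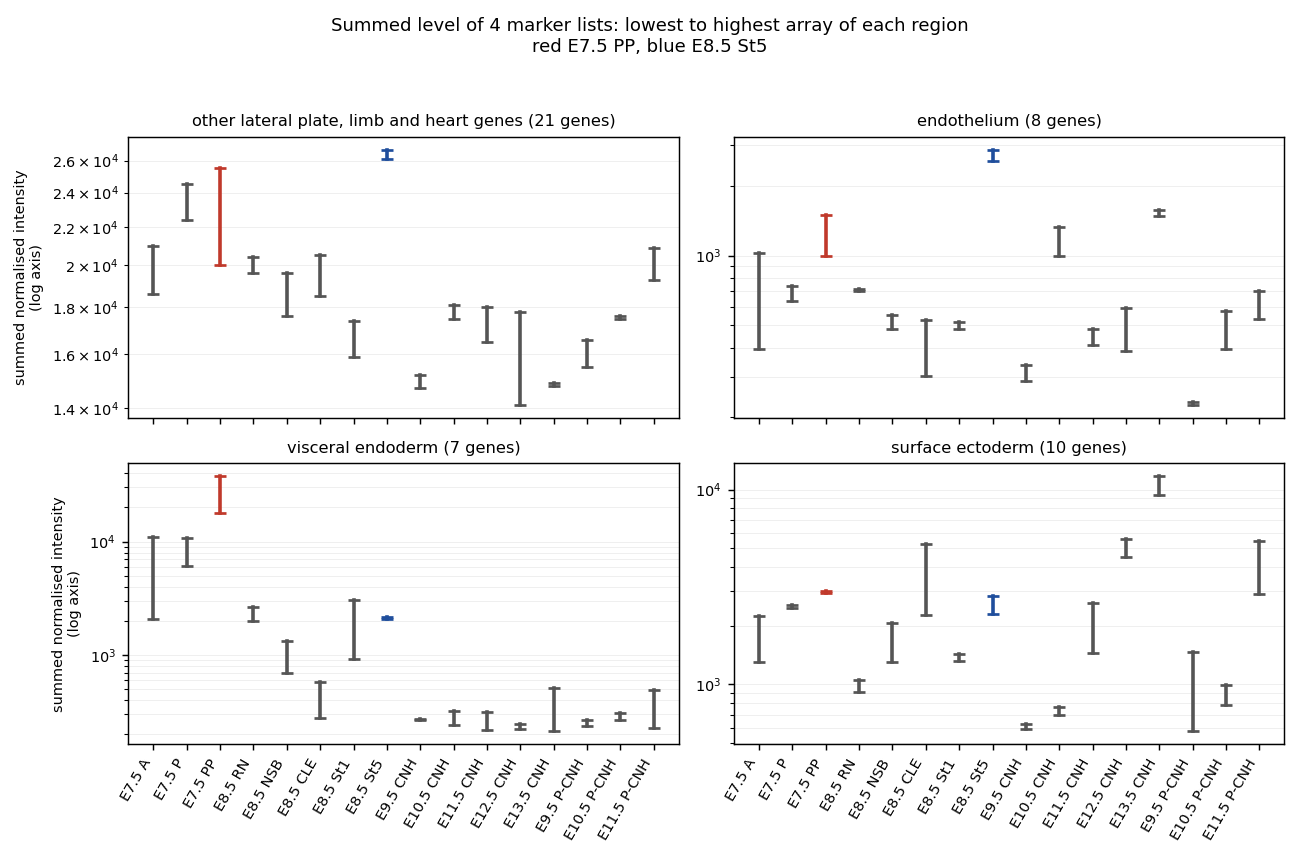
Summed normalised intensity of 4 gene lists, drawn from the lowest to the highest array of each region on a log axis. The sum of visceral endoderm genes is highest in PP, that of endothelial genes in St5 (2550 to 2860) and that of surface ectoderm genes in E13.5 CNH.

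Markers of other cell types moved with the same contrasts. In St5, 7 of 8 tested endothelial genes were higher, among them Sox7 (3.66), Sox18 (2.78), Tek (2.58) and Cdh5 (2.38), with a summed intensity of 2550 to 2860 against 301 to 717 in the other E8.5 regions. The visceral endoderm list had 0 of 7 called there, 3 at an unadjusted p under 0.05, at 2080 to 2170. Of 10 surface ectoderm genes 1 was called higher in St5, Tcfap2a (2.37), at 2310 to 2850 summed, and 4 were higher at an unadjusted p under 0.05. Trp63, Krt15, Krt5 and Krt17 were undetected in St5, while Tcfap2c, Wnt6, Cldn4 and Grhl3 were detected on both its arrays. The paper expected some surface ectoderm in St5 and in E13.5 CNH. The paraxial mesoderm list had 0 of 10 higher and 2 lower, Meox1 and Ripply2, with 0 higher at an unadjusted p under 0.05, and neural plate and notochord lists had 0 higher, also at an unadjusted p under 0.05. Of 7 definitive endoderm and hindgut genes Sox17, Spink3 and Krt19 were higher and Trh lower. The mean they were set against includes CLE, whose endoderm had been removed. By plain means Sox17 was 8.72 in St5 and 8.97 in NSB. Those of Spink3 were 12.40 in St5 and 11.38 in NSB, and those of Krt19 8.35 and 7.79. The part of vascular and surface ectoderm cells in the St5 values of the members was not tested.

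In PP, 4 of 7 visceral endoderm genes were higher, Afp (2.59), Apoa2 (2.79), Apob (2.23) and Rbp4 (3.32), with a sum of 37700 and 18000 on the PP arrays and 10800 and 6070 on the P arrays. In A the sum was 2100 and 2160 on replicates 1 and 2 and 10900 on replicate 3, the array on which Hand1 was detected. Endothelial genes were called in 0 of 8 in limma, 5 of them higher at an unadjusted p under 0.05, while the sum was 1500 and 1000 in PP and 1030 in A replicate 3, against 396 to 739 on the other E7.5 arrays. The part of these tissues in the E7.5 values was not tested.

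In the late CNH, 8 of 10 surface ectoderm genes were higher than at E9.5, led by Tcfap2c (5.78), Krt14 (5.23) and Trp63 (4.47). The summed intensity was 594 and 625 at E9.5, 765 and 699 at E10.5, 2620, 1450 and 2350 at E11.5, 5600 and 4480 at E12.5, and 9390 and 11700 at E13.5. Endothelial genes were higher in 6 of 8 cases, with a sum of 286 to 335 at E9.5, 1000 to 1330 at E10.5, 412 to 480 at E11.5, 386 to 592 at E12.5 and 1480 to 1570 at E13.5. At E10.5, the first stage with detected Tbx3, 7 of the 8 were detected, and Cdh5 was called higher than in the NSB (1.98, adjusted p = 0.000852). Neuronal genes were called higher in 0 of 6 cases, with 1 higher at an unadjusted p under 0.05, while Stmn2 was lower. Of 4 cartilage and limb mesenchyme genes Col2a1 (1.25) and Sox5 (2.44) were higher. Sox9 (0.67) was not called, and Prrx1 was undetected at E9.5, E12.5 and E13.5. Col2a1 (1.86) and Sox5 (2.42) were also called higher in E10.5 CNH than in the NSB. The paper expected surface ectoderm in the E13.5 CNH pieces. The part of surface ectoderm and vascular cells in the Tbx2 and Tbx3 values was not tested.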

How the data were processed

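The authors deposited average bead intensity for 45281 probes on 36 arrays, on a linear scale with background and no normalisation between arrays, and the deposited detection p-value of each probe. Their methods name lumi (variance stabilisation and robust spline normalisation), ComBat and limma, and those values were not used here. Here neqc (limma 3.58.1, R 4.3.3) gave log2 values, by normexp with an offset of 16 and quantile normalisation. The 21712 probes that 1 array or more detected (p-value under 0.01) were tested, and 23569 were left out. The model had region and batch terms, 18 residual degrees of freedom and a two-sided moderated test. Groups and batches came from the labels.

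A fold is given as a bound ("at least") where 1 group was undetected on all its arrays. The dim group is then set on each array to the lowest intensity of a detected probe, or to its own value if higher. The bound compares plain array means with no batch term, so between batches it is not a strict lower limit. A gene with several tested probes is counted by the probe with the highest mean. The scripts were tested on simulated data with 200 changed probes. The members, gene lists and comparisons were chosen with earlier results of these data known. All members are named. Of each list the 3 called genes with the largest difference were to be named, and further genes were named after their values were seen. For likeness, 1 to 3 of the 3 nearest genes are given. Alternatives covered background, offset, normalisation, filter, batch, BeadChip and leaving out arrays. The number of arrays limits the precision. Sequences are from RefSeq (GRCm38.p6), and the deposited table names no genome build.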

Additional observations from a re-analysis of the deposited data

Results flagged for a closer look

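The difference between posterior and other regions was larger at E8.5 (St5) than at E7.5 (PP) for 6 members, by the test of the difference between both contrasts in limma. It was 1.92 for Tbx2 (adjusted p = 0.00681), 4.37 for Tbx4 (adjusted p = 4.87e-08), 5.49 for Isl1 (adjusted p = 1.01e-08), 3.25 for Foxf1a (adjusted p = 0.0014), 0.94 for Pitx1 (adjusted p = 0.019) and 1.87 for Prdm6 (adjusted p = 0.000247). For Isl1, Foxf1a and Prdm6 the comparison regions at E7.5 held the gene. It was detected in A and P for Isl1, in P for Foxf1a, and in P and on 1 A array for Prdm6. The mean of Prdm6 was 8.79 in St5 and 8.66 in PP. Tbx2 and Pitx1 were detected on no E7.5 array. Pitx1 was detected on 1 array of the series, in St5, and passed the filter through it alone.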

How the results depend on the processing

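Of 101 called member comparisons, 64 kept their call under each alternative run. Counts of called members gave these lowest to highest values when 1 array was left out at a time: 8 to 9 for St5 against the other E8.5 regions (9 with all arrays), 2 to 4 for PP against A and P (4), 1 to 2 for A against P (2), 1 to 4 for St5 against PP (2), 7 to 8 for St5 and 4 to 6 for PP against the other 14 regions (8 and 6), 4 to 7 for the difference between the stages (6), 0 to 0 for E9.5 CNH against NSB (0), 1 to 2 for the late CNH against E9.5 (2) and against NSB (1), 6 to 7 for St5 against each E8.5 region (7), 1 to 3 for PP against both A and P (2), 1 to 5 calls over the later CNH stages against E9.5 (3) and 0 to 0 for P-CNH against CNH (0). Without NSB replicate 3 some comparisons could not be estimated and have no value.

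Over the alternatives other than leaving out 1 array, St5 against the other E8.5 regions gave 7 to 9. St5 gave 6 to 9 against each of these regions and 7 to 9 against the other 14 regions. PP gave 5 to 6 against those 14, and the difference between the stages gave 4 to 9. PP against A and P fell to 1 with BeadChip as a fixed block. A against P gave 1 with an offset of 100, without background correction, in cyclic loess and with batch left out of the model. St5 against PP gave 4 with an offset of 100, cyclic loess, no filter, batch left out of the model, a ComBat-type adjustment that did not know the regions, or without the 5 arrays of fewest detected probes, and 5 with regions in that adjustment. E9.5 CNH against NSB gave 1 with no filter, BeadChip as a fixed block or without the 5 arrays, and 2 in the ComBat-type adjustment with regions. The late CNH gave 1 against E9.5 with BeadChip as a random block. Against NSB it gave 3 with no batch term, the adjustment with regions or the random block, and 2 with the adjustment without regions or without the 5 arrays. PP against both A and P gave 0 with the fixed block, 1 with the random block or the adjustment without regions, and 4 with regions. The later CNH stages gave 1 with no background correction or no batch term, 5 with each array's detected probes as covariate, 6 with cyclic loess or the fixed block, 7 without the 5 arrays and 9 in the adjustment with regions. P-CNH against CNH gave 1 with the fixed block. The cause was not tested.

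Tbx3 at E13.5 against E9.5 (1.80) turned to -0.07 without E13.5 CNH replicate 1, in a range from -0.07 to 3.20. Tbx4 at E10.5 against E9.5 (-1.25, not called) was 0.02 with no batch term. Replicate numbers were not taken to pair the samples (median correlation 0.0533, 46 of 120 region pairs over 0.1). Among the regions of batch 1, where the number is also that of the BeadChip, the median was 0.183 and 8 of 15 pairs were over 0.1. With a replicate block beside batch, the difference between the stages was called for 4 members, without Tbx2 (1.55, adjusted p = 0.075) and Pitx1 (0.95, adjusted p = 0.0623), PP against A and P for 3, and the later CNH stages gave 4 calls. The other counts were as without it. With 2 or 3 arrays a region and regions spread unequally over batches, small differences between dim probes could not be resolved.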

Other observations

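Genes whose 16 region means, adjusted for batch, ran most like those of a member were listed by Pearson's r, as a description without a test. The points share 3 batches and the same arrays, and many of the nearest probes were detected on few arrays. Prdm6 was nearest to Hand1 (0.955, detected on 5 arrays) and Isl1 to Prrx2 (0.965, on 12), Gata3 (0.958, on 9) and Gata6 (0.944, on 16). Foxf1a was nearest to a Bmp4 probe (ILMN_1235698) detected on 4 arrays (0.933), which is not the Bmp4 probe whose values are given above. Tbx2 was nearest to Ahnak (0.939, on 4), Tbx3 to 6030495B01Rik (0.931, on 5), Tbx4 to Ren1 (0.925, on 2), Hand1 to Bnipl (0.967, on 3), Hand2 to Dppa3 (0.918, on 2) and Pitx1 to Vldlr (0.802, on 36). Among the members themselves, Tbx2 and Isl1 had an r of 0.0643.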
